A study of Mus musculus with 17 samples.

Results

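The genes described here are 10 members of the AP-1 and EGR groups of immediate-early genes, *Fos*, *Fosb*, *Fosl2*, *Jun*, *Junb*, *Jund*, *Egr1*, *Egr2*, *Egr3* and *Atf3*, in newborn mice deficient for osteocalcin (*Ocn*). They are the rows of a table of 55359 genes whose Ensembl identifiers carry these symbols in the GENCODE annotation of the mouse genome build GRCm39. The libraries came from male pups at postnatal day 1 of the Ocn_GK strain, made by homologous recombination and kept on a 129/SvEv background. Testes were sequenced from 2 WT, 3 *Ocn*+/- and 3 *Ocn*-/- pups and forebrain, a tissue that the sample labels call hippocampus, from 3 pups of each genotype. WT pups had WT mothers and all mutant pups had *Ocn*-/- mothers, so pup genotype, maternal genotype and litter cannot be told apart in any comparison with WT. Deficiency was present in every tissue from the start and not limited to a cell type, and each library is a whole organ or region, in which fewer cells of a type and less RNA per cell cannot be told apart. The labels do not say whether a replicate number marks the same pup in both organs.

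Immediate-early genes are transcribed within minutes after a cell receives a growth factor, a hormone, calcium entry or stress, from transcription factors that are already present. Proteins of the *Fos* and Jun families pair through leucine zippers to form AP-1, which binds the motif TGANTCA, while Egr proteins bind GC-rich sites with zinc fingers. In neurons *Fos* and *Egr1* are used as reporters of recent activity, and in the testis AP-1 takes part in the response of Leydig and Sertoli cells to gonadotropins.

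The sequences upstream of 4 genes are shown because these genes carry the results below: *Fos* and *Fosb* stood far above all other libraries in the libraries labelled *Ocn*+/- replicate 3 of both organs, and *Fosl2* and *Junb* were lower in every mutant testis than in both WT testes. Each is the stretch of 250 bases before the canonical transcription start of GENCODE in GRCm39, read 5′ to 3′ on the strand of the gene. It comes from the reference genome and not from the 129/SvEv mice. Capitals mark TGACG, the half-site of CREB and ATF proteins, GCGNGGGCG, the EGR motif, and TATAAA, each on either strand.
*Fos* (chr12:85520408-85520657, plus strand): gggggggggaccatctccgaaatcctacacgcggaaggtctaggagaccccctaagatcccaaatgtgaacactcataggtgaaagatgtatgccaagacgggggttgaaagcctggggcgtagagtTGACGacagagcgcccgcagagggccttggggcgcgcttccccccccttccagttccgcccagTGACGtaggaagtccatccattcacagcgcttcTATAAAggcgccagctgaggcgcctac
*Fosb* (chr7:19043977-19044226, minus strand): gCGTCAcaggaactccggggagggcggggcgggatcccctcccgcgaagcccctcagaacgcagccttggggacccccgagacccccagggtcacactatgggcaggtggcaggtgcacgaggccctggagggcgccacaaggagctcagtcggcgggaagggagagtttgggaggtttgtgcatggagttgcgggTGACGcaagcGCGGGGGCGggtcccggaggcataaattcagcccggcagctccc
*Fosl2* (chr5:32292457-32292706, plus strand): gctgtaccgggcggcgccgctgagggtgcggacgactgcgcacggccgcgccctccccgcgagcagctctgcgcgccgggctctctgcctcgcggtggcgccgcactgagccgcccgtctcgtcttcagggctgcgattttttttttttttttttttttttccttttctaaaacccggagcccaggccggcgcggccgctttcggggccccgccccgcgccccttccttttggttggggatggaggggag
*Junb* (chr8:85705348-85705597, minus strand): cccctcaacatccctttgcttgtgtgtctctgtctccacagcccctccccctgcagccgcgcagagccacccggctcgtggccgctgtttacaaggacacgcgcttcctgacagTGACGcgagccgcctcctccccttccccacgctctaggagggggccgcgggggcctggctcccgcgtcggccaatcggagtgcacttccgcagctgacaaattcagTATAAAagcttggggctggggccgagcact
In *Fos* the half-site TGACG stood at 60 and 123 bases before the start and in *Fosb* at 54 and 249, counted at the base farthest from the start. *Junb* held it once, 136 bases before the start, and *Fosl2* held no capitals at all. TATAAA was found in *Fos*, 27 bases before the start, and in *Junb*, 30 bases before it, while GCGNGGGCG was found in *Fosb*, 44 bases before it. Of 21757 promoters of protein-coding genes in windows of the same length, 18.0% held TGACG, 11.9% TATAAA and 4.48% GCGNGGGCG. The full CRE TGACGTCA, which contains TGACG, was in 1.70% of promoters and among the 10 genes in *Jund* only. The AP-1 motif TGANTCA was in 6.18% of promoters and in none of these genes. The CArG box, bound by serum response factor, was in 1.40% of promoters and among these genes in *Egr2*, 65 bases before the start, and *Egr3*, 58 bases before it. A match of letters is a description and no evidence of binding.

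All 10 genes passed the filter on low counts in both organs, and no gene was excluded. Levels are given as CPM, the counts of a gene scaled by the size of the library with TMM normalization within an organ, and a gene is called when its Benjamini-Hochberg adjusted p over all genes of the fit, from edgeR's quasi-likelihood test, is under 0.05. Libraries of testes held 7302401 to 8289015 counts and libraries of forebrain 6518151 to 14621584. Forebrain WT 3 had the fewest counts and stood apart by its content of the ribosomal RNA gene *Rn18s-rs5*, which took 8.50% of its counts and at most 0.805% in any other library. Markers of Sertoli, Leydig and germ cells were present in every testis. Forebrain libraries expressed forebrain markers at sums of 1238 to 2121 CPM and hindbrain and midbrain markers at sums of at most 0.473 CPM.

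On a scale of CPM per kilobase of exon, *Jund* was the most abundant of the 10 genes in WT mice, at 104 in testes and 63.8 in forebrain. In testes *Egr1* (30.9), *Jun* (30.2) and *Fosl2* (19.5) came next, followed by *Fos* (7.85), *Junb* (6.83), *Egr2* (4.21), *Atf3* (3.21), *Fosb* (1.34) and *Egr3* (0.662). *Egr1* and *Jun* did not differ beyond the spread of the WT testes. In forebrain *Jun* (18.2), *Egr1* (10.2) and *Fosl2* (6.99) followed *Jund*. *Fos* and *Egr3* had the same level, 2.84, and *Junb* (1.45), *Egr2* (0.792), *Fosb* (0.597) and *Atf3* (0.244) were lowest. Expected counts fell below 50 in at least 1 library for *Fos*, *Fosb*, *Junb*, *Egr2*, *Egr3* and *Atf3*, and were as low as 1 for *Fosb* in a testis and for *Atf3* in a forebrain.

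**Figure D1:**
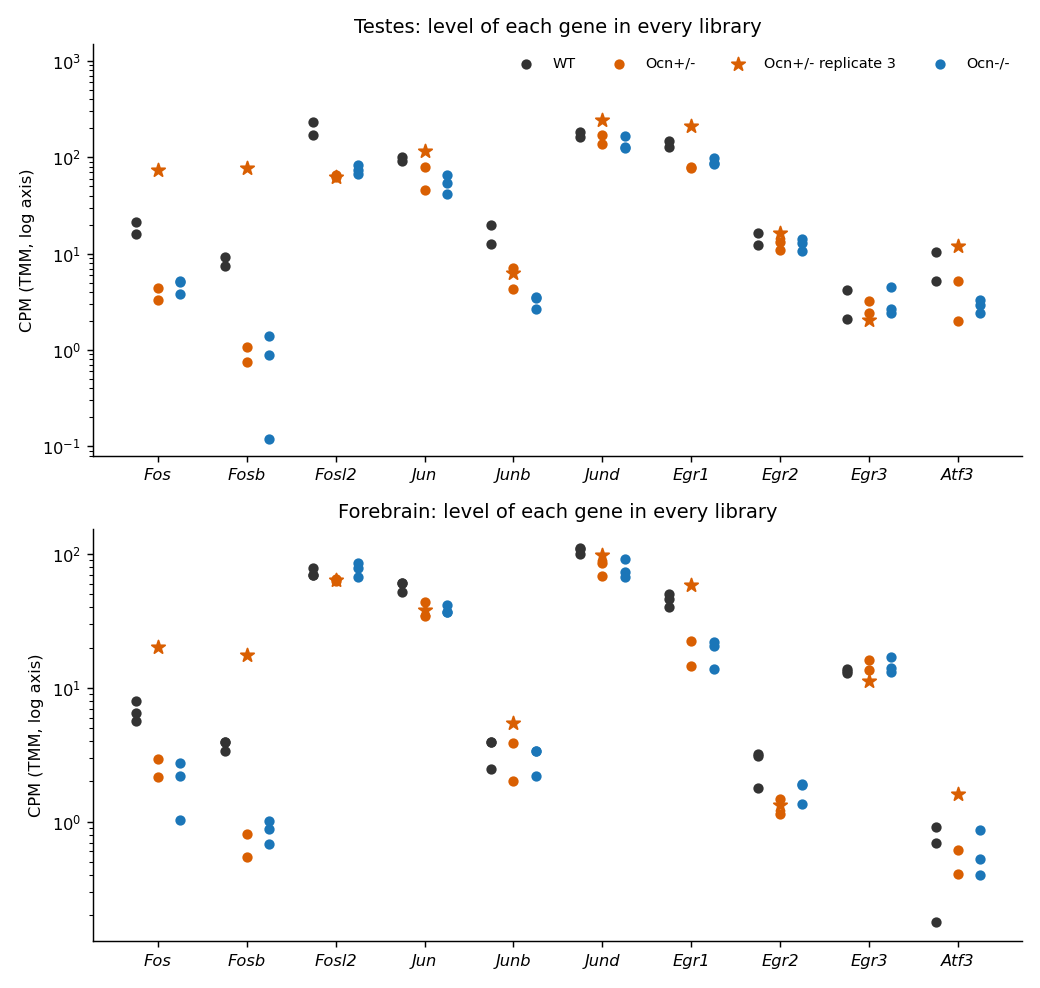
Level of the 10 genes in every library in testes (top) and forebrain (bottom), in CPM on a logarithmic axis. Each point is a library, black for WT, orange for Ocn+/- and blue for Ocn-/-, with a star for Ocn+/- replicate 3. The star lies far above all other points for Fos and Fosb in both organs, at 73.0 and 76.6 CPM in testes and 20.0 and 17.5 CPM in forebrain.

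*Fos* encodes the founding member of the Fos family, which needs a *Jun* partner to bind DNA. It lies at chr12:85520658-85524047 on the plus strand. In testes it was at 15.8 and 21.2 CPM in WT, at 3.32, 4.42 and 73.0 CPM in *Ocn*+/- and at 5.22, 3.82 and 5.05 CPM in *Ocn*-/- mice. In forebrain it was at 7.93, 6.45 and 5.69 CPM in WT, at 2.16, 2.94 and 20 CPM in *Ocn*+/- and at 1.04, 2.75 and 2.18 CPM in *Ocn*-/- mice. In both organs 5 of 6 mutant libraries lay below every WT library and the sixth, *Ocn*+/- 3, above all of them.

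*Fosb*, whose short splice form accumulates in neurons after repeated stimulation, lies at chr7:19036621-19043976 on the minus strand and had the same arrangement with a wider gap. In testes its level was 7.51 and 9.21 CPM in WT, 1.06, 0.757 and 76.6 CPM in *Ocn*+/- and 0.119, 1.40 and 0.885 CPM in *Ocn*-/- mice. In forebrain it was 3.36, 3.92 and 3.91 CPM in WT, 0.812, 0.542 and 17.5 CPM in *Ocn*+/- and 0.879, 1.00 and 0.677 CPM in *Ocn*-/- mice. The table does not separate its splice forms. The lowest testis, *Ocn*-/- 1, held a single count of *Fosb* against 557 in *Ocn*+/- 3.

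With all libraries, neither gene was called in any comparison. Against WT the log2 fold change of *Fos* in testes was 0.53 ± 1.37 (SE) in *Ocn*+/- mice (adjusted p = 0.850) and -1.97 ± 1.47 in *Ocn*-/- mice (adjusted p = 0.494). For *Fosb* it was 1.64 ± 1.93 (adjusted p = 0.652) and -3.38 ± 2.51 (adjusted p = 0.492). The standard errors of both *Ocn*-/- comparisons carry the spread of the *Ocn*+/- libraries, since all 3 genotypes of an organ share the estimate.

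Without testes *Ocn*+/- 3, *Fos* and *Fosb* were called lower in both mutant genotypes. *Fos* changed by -2.25 ± 0.32 in *Ocn*+/- (adjusted p = 0.00198) and by -1.97 ± 0.27 in *Ocn*-/- testes (adjusted p = 0.00120). *Fosb* changed by -3.18 ± 0.63 (adjusted p = 0.0186) and by -3.38 ± 0.55 (adjusted p = 0.00390). Only 2 *Ocn*+/- testes remain in this fit. The direction of the *Ocn*+/- comparison therefore rests on a single library for both genes.

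The same was seen in forebrain. With all libraries *Fos* was at 0.31 ± 0.88 in *Ocn*+/- (adjusted p = 0.882) and -1.75 ± 1.00 in *Ocn*-/- mice (adjusted p = 0.370), and *Fosb* at 0.78 ± 1.23 (adjusted p = 0.778) and -2.10 ± 1.5 (adjusted p = 0.478). Without forebrain *Ocn*+/- 3, *Fos* fell by 1.41 on the log2 scale in *Ocn*+/- (SE 0.34, adjusted p = 0.0411) and by 1.75 in *Ocn*-/- mice (SE 0.31, adjusted p = 0.00370). *Fosb* fell by 2.42 (SE 0.45, adjusted p = 0.00756) and by 2.10 (SE 0.38, adjusted p = 0.00402). When forebrain WT 3 was left out as well, *Fosb* in *Ocn*+/- mice was at -2.39 ± 0.48 (adjusted p = 0.0393), and both genes kept adjusted p of 0.0163 and 0.0270 in *Ocn*-/- mice. *Fos* in *Ocn*+/- mice was then no longer called.

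**Figure D2:**
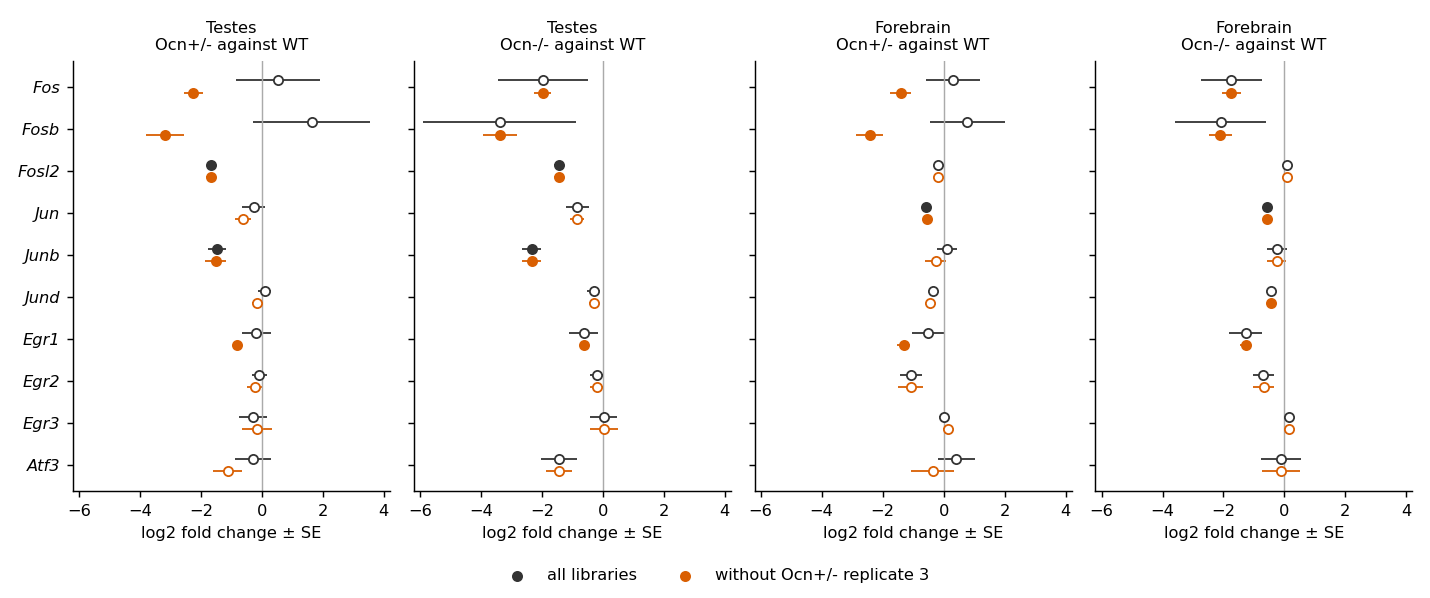
Log2 fold change of the 10 genes against WT, with bars of 1 SE, in testes (left pair) and forebrain (right pair). Black symbols are fits with all libraries and orange symbols fits without Ocn+/- replicate 3 of that organ, filled where the adjusted p is under 0.05. Fos and Fosb in Ocn+/- mice move from above 0 to -2.25 and -3.18 in testes and to -1.41 and -2.42 in forebrain.

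*Fosl2* encodes Fra-2, a Fos family member that is made later and lasts longer than *Fos*, and lies at chr5:32292707-32315186 on the plus strand. In testes it was at 234 and 171 CPM in WT, 62.0, 65.5 and 62.7 CPM in *Ocn*+/- and 73.4, 66.8 and 82.8 CPM in *Ocn*-/- mice. No mutant testis, *Ocn*+/- 3 included, reached the WT range, and the 6 lay close to each other. It was called lower in *Ocn*+/- (-1.67 ± 0.14, adjusted p = 3.78e-06) and in *Ocn*-/- testes (-1.45 ± 0.14, adjusted p = 1.69e-05).

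In forebrain *Fosl2* was at 78.5, 69.6 and 69.9 CPM in WT, 64.7, 62.8 and 63.4 CPM in *Ocn*+/- and 85.9, 79.0 and 67.4 CPM in *Ocn*-/- mice, and the groups of WT and *Ocn*-/- mice overlapped. Its changes of -0.19 ± 0.10 in *Ocn*+/- (adjusted p = 0.270) and 0.09 ± 0.10 in *Ocn*-/- mice (adjusted p = 0.644) were not called. The difference between organs was tested in a joint fit of all 17 libraries, as the mean of the changes of both mutant genotypes against WT. This mean was -0.046 in forebrain and -1.56 in testes, and the difference of 1.52 ± 0.15 was called (adjusted p = 4.95e-06).

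*Jun* encodes a factor that can bind DNA as a pair of its own kind and lies at chr4:94937271-94940459 on the minus strand. In forebrain it was at 51.7, 60.9 and 61.0 CPM in WT, 34.3, 44.1 and 38 CPM in *Ocn*+/- and 36.6, 37.0 and 41.7 CPM in *Ocn*-/- mice. No mutant forebrain reached the lowest WT forebrain, and *Ocn*+/- 3 lay between the other *Ocn*+/- libraries. *Jun* was called lower in *Ocn*+/- (-0.57 ± 0.11, adjusted p = 0.00807) and in *Ocn*-/- forebrain (-0.59 ± 0.11, adjusted p = 0.00655), the only call among the 10 genes there. Without forebrain WT 3 and *Ocn*+/- 3 together the changes were -0.52 and -0.54 and missed the threshold, with adjusted p of 0.121 and 0.0555.

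In testes *Jun* was at 92.5 and 99.9 CPM in WT, 78.9, 46.2 and 115 CPM in *Ocn*+/- and 54.7, 66.0 and 41.2 CPM in *Ocn*-/- mice. All *Ocn*-/- testes were below WT, whereas *Ocn*+/- 3 was above it. The change in *Ocn*-/- testes of -0.83 ± 0.38 was not called with all libraries (adjusted p = 0.252). It was called without *Ocn*+/- 2 (-0.82 ± 0.19, adjusted p = 0.0317) and with WT and *Ocn*-/- libraries alone (adjusted p = 0.0148).

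*Junb* encodes a Jun protein that can act against *Jun* in growth control and lies at chr8:85701113-85705359 on the minus strand. In testes it was at 12.6 and 19.9 CPM in WT, 7.04, 4.29 and 6.33 CPM in *Ocn*+/- and 3.56, 3.44 and 2.65 CPM in *Ocn*-/- mice. The 3 genotypes did not overlap, with *Ocn*-/- lowest. *Junb* was called lower in *Ocn*+/- (-1.47 ± 0.29, adjusted p = 0.00859) and *Ocn*-/- testes (-2.33 ± 0.31, adjusted p = 4.70e-04), while the difference of -0.86 ± 0.30 between *Ocn*-/- and *Ocn*+/- testes was not called (unadjusted p = 0.00981, adjusted p = 0.318). The *Ocn*+/- call was lost without WT 2 (-1.08 ± 0.38, adjusted p = 0.206).

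In forebrain *Junb* was at 3.97, 3.92 and 2.49 CPM in WT, 3.85, 2.01 and 5.44 CPM in *Ocn*+/- and 3.35, 2.21 and 3.39 CPM in *Ocn*-/- mice, and all groups overlapped. Its mean change in both mutant genotypes was -0.069 in forebrain and -1.91 in testes, and the difference of 1.84 ± 0.41 was called (adjusted p = 0.0170). Without testes WT 2 the adjusted p of this difference was 0.189, and without forebrain WT 3 it was 0.0538. The gene overlaps *Prdx2* on the other strand, and strand is not stated for these counts. Expected counts of *Junb* were whole in every library, so none of its reads was counted in part for another gene. How reads of the overlap were assigned was not tested. *Prdx2* was at 0.10 ± 0.13 in *Ocn*+/- (adjusted p = 0.658) and 0.07 ± 0.13 in *Ocn*-/- testes (adjusted p = 0.778).

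*Jund* encodes the Jun protein that resting cells express and lies at chr8:71151599-71153265 on the plus strand. In forebrain it was at 99.2, 109 and 111 CPM in WT, 68.4, 85.7 and 98.4 CPM in *Ocn*+/- and 67.6, 72.8 and 92.4 CPM in *Ocn*-/- mice. All mutant forebrains were below all WT forebrains, although *Ocn*+/- 3 was within 1 CPM of the lowest of these. Its changes of -0.34 ± 0.13 in *Ocn*+/- (adjusted p = 0.161) and -0.45 ± 0.13 in *Ocn*-/- mice (adjusted p = 0.0591) were not called. Without *Ocn*+/- 3 the *Ocn*-/- change was called (-0.45 ± 0.12, adjusted p = 0.0360).

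In testes *Jund* was at 162 and 183 CPM in WT, 169, 139 and 246 CPM in *Ocn*+/- and 124, 129 and 166 CPM in *Ocn*-/- mice, with overlapping groups and no call. *Jund* overlaps the antisense RNA *Gm11175*, and both it and *Jun* held expected counts that were not whole, from reads that also matched elsewhere. Reads of *Jund* and *Gm11175* cannot be told apart without strand.

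*Egr1*, on chromosome 18, encodes the zinc finger factor that activates the luteinizing hormone beta gene in the pituitary and is used as a marker of neuronal activity. In testes it was at 129 and 148 CPM in WT, 77.6, 79.1 and 212 CPM in *Ocn*+/- and 97.7, 84.9 and 86.9 CPM in *Ocn*-/- mice. In forebrain it was at 40.4, 50.3 and 46.4 CPM in WT, 14.5, 22.2 and 58.9 CPM in *Ocn*+/- and 13.8, 22.2 and 20.7 CPM in *Ocn*-/- mice. As for *Fos*, every mutant library but *Ocn*+/- 3 was below WT and that library above WT in both organs.

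With all libraries *Egr1* was not called. In testes its changes were -0.18 ± 0.48 in *Ocn*+/- (adjusted p = 0.858) and -0.63 ± 0.48 in *Ocn*-/- mice (adjusted p = 0.50), and in forebrain -0.51 ± 0.52 (adjusted p = 0.640) and -1.27 ± 0.54 (adjusted p = 0.242). Without *Ocn*+/- 3 of the organ all 4 were called. In testes they were then -0.83 ± 0.14 (adjusted p = 0.00667) and -0.63 ± 0.12 (adjusted p = 0.0123), and in forebrain -1.31 ± 0.21 (adjusted p = 0.00606) and -1.26 ± 0.18 (adjusted p = 0.00191).

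*Egr2* drives myelination by Schwann cells and takes part in hindbrain segmentation, and *Egr3* is needed for muscle spindles. Neither was called in any comparison, with or without *Ocn*+/- 3. *Egr2* (chr10:67371305-67378018, plus strand) ranged from 10.6 to 16.5 CPM over all testes, where genotypes overlapped. In forebrain it was at 3.20, 3.11 and 1.78 CPM in WT, 1.15, 1.47 and 1.34 CPM in *Ocn*+/- and 1.92, 1.88 and 1.35 CPM in *Ocn*-/- mice, with 10 to 42 counts, and its change in *Ocn*+/- mice was -1.07 ± 0.35 (adjusted p = 0.0907).

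*Egr3* (chr14:70314350-70320063, plus strand) was at 2.06 to 4.50 CPM over all testes and at 11.2 to 17.1 CPM over all forebrains. Unlike *Egr1*, both genes were no higher in *Ocn*+/- 3 than in the highest other library of the organ. *Egr3* was at 11.2 CPM in that forebrain, the lowest of all.

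*Atf3* encodes a stress-induced ATF/CREB protein that pairs with Jun proteins and lies at chr1:190902493-190950241 on the minus strand. In testes it was at 5.18 and 10.5 CPM in WT, 5.18, 2.02 and 12.1 CPM in *Ocn*+/- and 2.96, 2.42 and 3.29 CPM in *Ocn*-/- mice. *Ocn*+/- 3 was again highest, and the *Ocn*-/- testes were all below WT. The change in *Ocn*-/- testes, -1.43 ± 0.60, was not called with all libraries (adjusted p = 0.189) or without *Ocn*+/- 3 (adjusted p = 0.0719), but was with WT and *Ocn*-/- libraries alone (adjusted p = 0.0436). In forebrain *Atf3* was at 0.178 to 1.61 CPM, with 1 to 24 counts, and no comparison was called.

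Counted over the 10 genes, 2 were called in *Ocn*+/- against WT testes, beside 8.25% of all 16361 genes tested, and 2 in *Ocn*-/- against WT, beside 5.64%. All 4 calls were lower, beside 4.36% and 3.09% of all genes called lower, and belonged to *Fosl2* and *Junb*. In forebrain *Jun* alone was called in each comparison with WT, beside 3.89% and 4.85% of 16076 genes (2.68% and 3.05% called lower). The difference between organs was called for *Fosl2* and *Junb*, beside 2.96% of 17800 genes. None was called between *Ocn*-/- and *Ocn*+/- mice, where 1 gene in each organ had an unadjusted p under 0.05, *Junb* in testes and *Fosl2* in forebrain, and where 0% and 0.00622% of all genes were called. DESeq2 also called none of the 10 genes between the mutant genotypes.

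Without *Ocn*+/- 3, 5 of 10 genes were called in *Ocn*+/- testes and the same 5 in *Ocn*-/- testes, *Fos*, *Fosb*, *Fosl2*, *Junb* and *Egr1*, all lower, beside 1.79% and 2.56% of all genes called lower. In forebrain 4 were called in *Ocn*+/- mice, *Fos*, *Fosb*, *Jun* and *Egr1*, and these with *Jund* in *Ocn*-/- mice, beside 1.24% and 2.66%. The fit without this library was chosen for its values, so these counts describe how far the calls depend on it. Comparisons of both mutant genotypes share the WT libraries.

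In testes the median log2 fold change of the 10 genes was -0.22 for *Ocn*+/- and -1.13 for *Ocn*-/- mice, and in forebrain it was -0.09 and -0.52, beside medians between -0.0064 and 0.0066 over all genes. Without *Ocn*+/- 3 the medians in *Ocn*+/- mice were -0.97 in testes and -0.51 in forebrain. By rank alone, all mutant testes were below both WT testes for *Fosl2* and *Junb*, 2 of 10 genes, as for 13.6% of all genes. All mutant forebrains were below all WT forebrains for *Jun* and *Jund*, as for 8.57% of all genes. Leaving *Ocn*+/- 3 aside, this held for 7 of 10 genes in testes (15.4% of all genes), all but *Jund*, *Egr2* and *Egr3*. For *Atf3* it held by less than 0.01 CPM. In forebrain it held for 5 of 10 genes (9.63% of all genes), namely *Fos*, *Fosb*, *Jun*, *Jund* and *Egr1*. That library was set aside for its values in these genes, so these counts only describe how far the order depends on it.

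The library *Ocn*+/- 3 was examined next in each organ. In testes it was 8.32 times the next highest library for *Fosb* and 3.44 times for *Fos*, and in forebrain 4.48 and 2.53 times. Against the mean of *Ocn*+/- 1 and 2, *Fosb* was 84.2 times higher in testes and 25.9 times in forebrain, and *Fos* 18.9 and 7.84 times. *Egr1* was 2.7 and 3.2 times higher than this mean and *Atf3* 3.36 and 3.14 times. *Fosl2* was at 0.983 and 0.993 of it, so the late Fos family member did not share the excess in either organ.

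**Figure D3:**
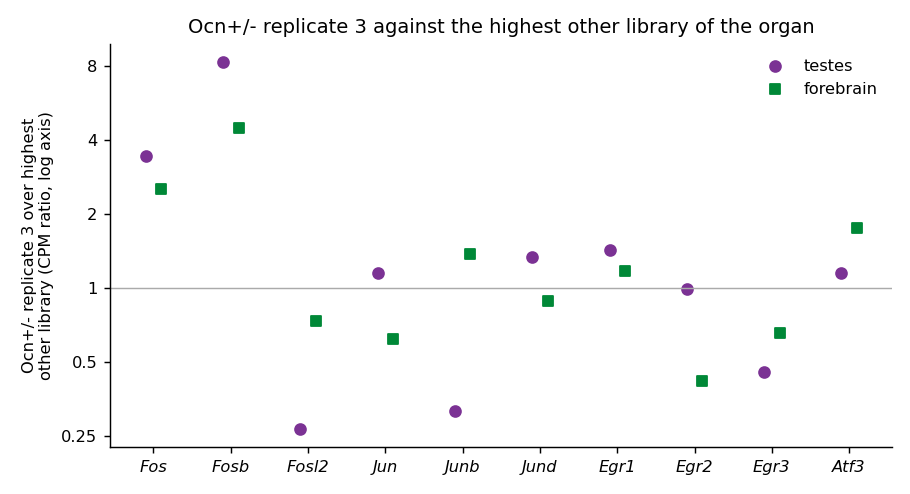
Ratio of the CPM of Ocn+/- replicate 3 to the highest other library of the same organ, on a logarithmic axis, in testes (circles) and forebrain (squares). The line marks a ratio of 1. Fosb (8.32 and 4.48) and Fos (3.44 and 2.53) are the only genes of the 10 above 2, and Fosl2, Egr2 and Egr3 are below 1 in both organs.

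Excess of this size in a single library was rare. Among all genes tested with at least 10 counts in some library, 9 in testes (0.055%) and 4 in forebrain (0.0249%) were highest in *Ocn*+/- 3 at 2 or more times the next library. *Fos* and *Fosb* were the 2 genes on both lists, 22.2% of the testes list and 50% of the forebrain list. The other 7 in testes were *Phospho1* (3.16 CPM) and 6 pseudogenes or genes without a given name, at 3.44 CPM (Gm12840) to 40.8 CPM (Rpl30-ps9), and the other 2 in forebrain were *Gm45140* and *Klf2*. Between 4 and 24 genes met this criterion in each of the other testes. In the other forebrains it was between 1 and 4, apart from WT 3 with 45.

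Short of this factor, *Ocn*+/- 3 was the highest library for 6 of the 10 genes in testes, beside 13.4% of all genes. In forebrain it was so for 5 of the 10, beside 9.23% of all genes. *Fos* and *Fosb*, for whose levels this library was singled out, are among them in both organs, so these counts are a description. *Fos*, *Fosb*, *Egr1* and *Atf3* were in both groups, with *Jun* and *Jund* in testes and *Junb* in forebrain. Of 44 other immediate-early genes it was the highest library for 11 in testes and 9 in forebrain. *Klf2*, *Klf4*, *Socs3*, *Ier2* and *Zfp36* were among them in both organs. *Klf4*, a zinc finger factor induced with *Fos*, reached 98.5 CPM in testes against 60.2 CPM in the next library and 14.1 against 9.96 CPM in forebrain.

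Other measures of the same libraries were compared. Their depth was 7302401 counts in testes, the lowest of that organ, and 14621584 in forebrain, the highest of that organ. Summed heat shock genes of *Ocn*+/- 3 ranked 4 of 8 in testes and 2 of 9 in forebrain, and summed hypoxia genes ranked 4 in each. Summed Leydig cell markers were at 1249 CPM in testes *Ocn*+/- 3, highest of the 6 mutant testes, which started at 714 CPM. Summed macrophage markers ranked 2 in testes and 1 in forebrain, at 154 and 114 CPM, against ranges of 65.5 to 164 and 86.7 to 110 CPM in the other libraries. Summed endothelial (458 CPM), neutrophil (45.7 CPM) and smooth muscle (991 CPM) markers of testes *Ocn*+/- 3 were the highest of the mutant testes. In forebrain summed hippocampus and erythroid markers ranked last, at 236 and 357 CPM. The sum of the same hippocampus genes also ranked last in testes, at 123 CPM, where they do not mark hippocampus. The part of these in the levels of *Fos* and *Fosb* was not tested.

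The 44 other immediate-early genes, a list written by hand for this work, were lower in mutant testes more often than higher. Of 43 tested, 18 were called lower in *Ocn*+/- and 18 in *Ocn*-/- testes and none higher, with medians of -0.48 and -0.63, beside 4.36% and 3.09% of all genes called lower. Without WT 2 these counts were 7 and 8. *Nr4a1*, *Nr4a2*, *Nr4a3*, *Per1*, *Rgs2* and *Nfil3* were called in both genotypes whichever testis was left out. *Nr4a2* and *Nr4a3*, orphan nuclear receptors induced by cyclic AMP, fell furthest, by 3.89 and 6.07 on the log2 scale in *Ocn*+/- testes (adjusted p = 9.93e-07 and 0.00245). *Nr4a1* changed by -1.65 (adjusted p = 0.00310), *Nfil3* by -1.79 (adjusted p = 1.62e-04), the clock gene *Per1* by -1.56 (adjusted p = 2.66e-05) and *Rgs2* by -1.43 (adjusted p = 0.00184). In *Ocn*-/- testes the largest were *Nr4a3* (-4.12), *Nr4a2* (-3.51), *Ptgs2* (-3.36), *Nr4a1* (-2.12), *Per1* (-1.89) and *Nfil3* (-1.83), with adjusted p of 0.00563, 3.63e-06, 0.0405, 7.77e-04, 7.70e-06 and 1.27e-04. The call of *Ptgs2* was lost without either WT testis, *Ocn*-/- 1 or *Ocn*+/- 3.

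Of the genes named, *Nr4a2*, *Nr4a3* and *Per1* stayed below WT in testes *Ocn*+/- 3, where *Fos* was high. In that testis *Nr4a2* was at 3.16 CPM and *Nr4a3* at 0.963 CPM, against WT means of 53.9 and 33.8 CPM, and *Per1* was at 52.4 CPM against 148 CPM. In forebrain *Nr4a1* was highest in *Ocn*+/- 3, at 20.8 CPM against 17.7 CPM in the next library. Without testes *Ocn*+/- 3 14 of the 43 genes were called lower in *Ocn*+/- testes and 20 in *Ocn*-/- testes.

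In forebrain 4 of 43 were called in *Ocn*+/- and 7 in *Ocn*-/- mice, all lower, with medians of -0.19 and -0.36, beside 2.68% and 3.05% of all genes called lower. Without WT 3, the library rich in *Rn18s-rs5*, 0 and 1 of 43 were called. *Klf10* in *Ocn*-/- mice was the gene that kept its call, and without WT 2 none was called in *Ocn*+/- mice either. In *Ocn*+/- mice they were *Gadd45g* (-1.01, adjusted p = 0.0223), *Per1* (-0.49, adjusted p = 0.0402), *Dusp6* (-0.46, adjusted p = 0.0321) and *Ier5* (-0.46, adjusted p = 0.0227). In *Ocn*-/- mice *Klf10* (-0.79, adjusted p = 0.00283), *Per1* (-0.61), *Dusp1* (-0.56), *Dusp6* (-0.55), *Sik1* (-0.53) and *Ier5* (-0.46) changed most. *Dusp1* and *Dusp6* encode phosphatases that switch off MAP kinases. Between the mutant genotypes no gene of the list was called in either organ.

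**Figure D4:**
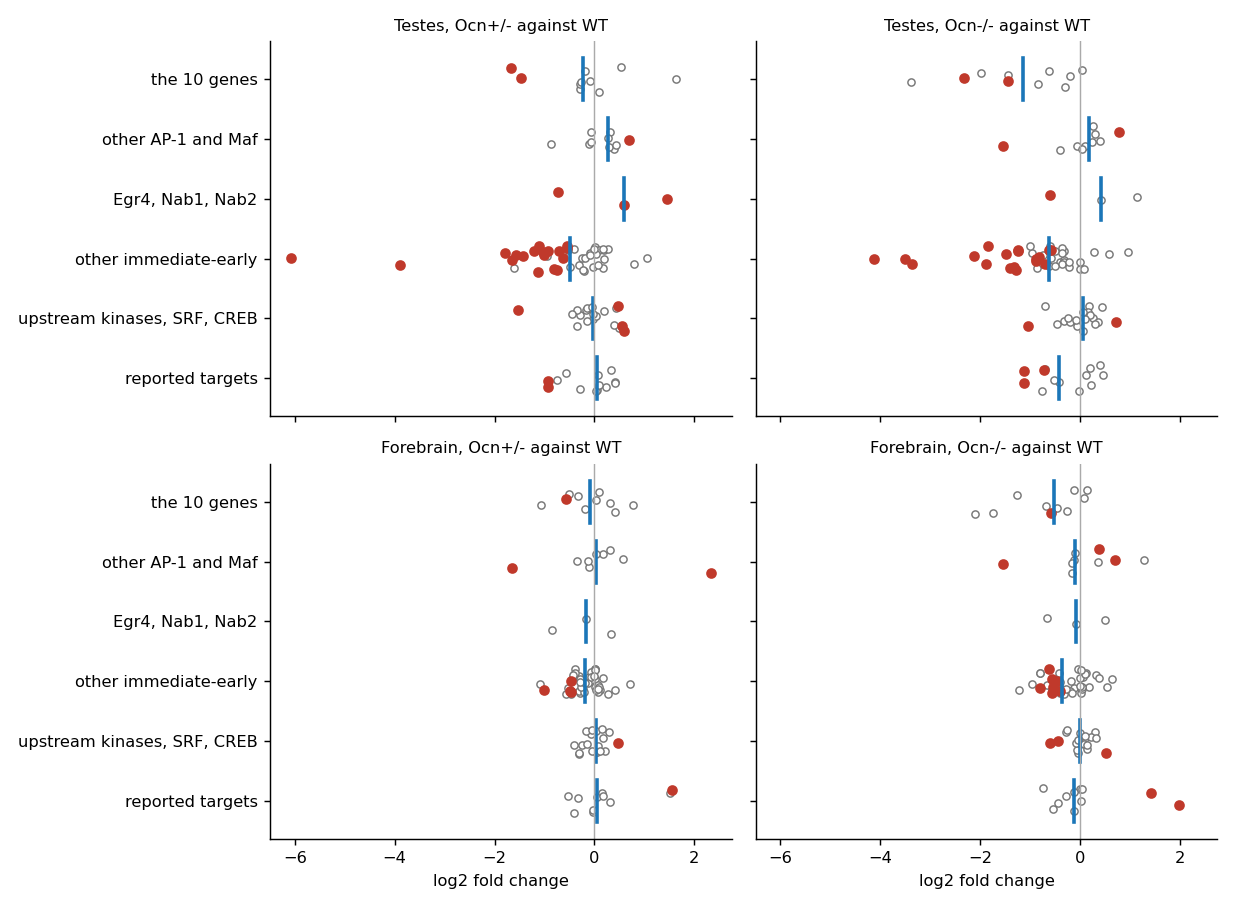
Log2 fold change against WT, with all libraries, of the 10 genes and of 5 lists of related genes, in testes (top) and forebrain (bottom). Each circle is a gene, filled red where the adjusted p is under 0.05, and the blue bar is the median of the list. In testes 18 of 43 other immediate-early genes are called lower in either mutant genotype.

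Of 14 other AP-1, ATF and *Maf* genes, 10 were tested in testes and 9 in forebrain. *Maff*, a small *Maf* protein that lacks a transactivation domain, was lower in *Ocn*-/- testes (-1.54, adjusted p = 0.0141) and in *Ocn*+/- (-1.64, adjusted p = 0.0377) and *Ocn*-/- forebrain (-1.53, adjusted p = 0.0436). *Mafa*, known for activating the insulin gene, was higher in *Ocn*+/- (0.69, adjusted p = 0.0273) and *Ocn*-/- testes (0.78, adjusted p = 0.0177) and in *Ocn*+/- forebrain (2.33, adjusted p = 0.0176), where its WT mean was 0.913 CPM. Both *Ocn*+/- calls of *Mafa* were lost without *Ocn*+/- 3 of the organ. In *Ocn*-/- forebrain *Mafk* (0.70, adjusted p = 0.0309) and *Mafg* (0.39, adjusted p = 0.0250) were also higher. All forebrain calls of this list were lost without WT 3, as they were without WT 2, and in *Ocn*+/- forebrain also without *Ocn*+/- 3. The testes calls of *Maff* and *Mafa* were lost without WT 2.

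Among the partners of Egr proteins, the corepressor *Nab1* was lower in *Ocn*+/- (-0.73, adjusted p = 0.00526) and *Ocn*-/- testes (-0.60, adjusted p = 0.0167). The corepressor *Nab2* (0.59, adjusted p = 0.0393) and *Egr4* (1.46, adjusted p = 0.0354), a factor needed for germ cell development, were higher in *Ocn*+/- testes with all libraries. Both calls were lost without *Ocn*+/- 3, without either WT testis, and without *Ocn*+/- 1 or *Ocn*-/- 1, and that of *Nab1* was lost in both genotypes without WT 1. In forebrain none of the 3 was called, with extremes of -0.85 for *Egr4* (adjusted p = 0.280) and 0.34 for *Nab2* (adjusted p = 0.314) in *Ocn*+/- mice and of -0.66 for *Egr4* (adjusted p = 0.392) and 0.50 for *Nab2* (adjusted p = 0.116) in *Ocn*-/- mice.

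Of 19 genes upstream, the kinases and the factors that act on serum response and cyclic AMP elements, 4 were called in *Ocn*+/- and 2 in *Ocn*-/- testes, beside 8.25% and 5.64% of all genes. *Crem*, the cyclic AMP element modulator, was lower in both genotypes (-1.52, adjusted p = 0.00119, and -1.05, adjusted p = 0.0116). *Rps6ka2*, a ribosomal S6 kinase that phosphorylates such factors, was higher in both (0.60, adjusted p = 0.0265, and 0.72, adjusted p = 0.0128). *Mrtfb* (0.48, adjusted p = 0.0319) and *Rps6ka1* (0.55, adjusted p = 0.0435) were higher in *Ocn*+/- testes. Without *Ocn*+/- 3 only *Crem* was called in *Ocn*+/- testes, and without WT 2 none was called in *Ocn*-/- testes.

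In forebrain the serum response factor partners *Elk4* (-0.61, adjusted p = 0.0140) and *Elk1* (-0.43, adjusted p = 0.0125) were lower and *Mrtfb* (0.53, adjusted p = 0.00940) was higher in *Ocn*-/- mice, and *Mrtfa* (0.48, adjusted p = 0.0150) was higher in *Ocn*+/- mice, so that 3 and 1 of 19 genes were called, beside 4.85% and 3.89% of all genes. Without WT 3 the calls of *Elk4* and *Mrtfb* were lost and that of *Elk1* was not, and without *Ocn*+/- 3 that of *Mrtfa* was lost. The median of the list was between -0.035 and 0.064 in the comparisons with WT.

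Of 16 genes reported elsewhere as AP-1 or EGR targets, 13 were tested in testes, where *Cd44* (-0.93, adjusted p = 0.00862, and -1.12, adjusted p = 0.00274) and *Spp1* (-0.94, adjusted p = 0.00158, and -0.72, adjusted p = 0.00786) were lower in *Ocn*+/- and *Ocn*-/- mice. *Spp1*, which encodes osteopontin, was higher in forebrain in both genotypes (1.55, adjusted p = 8.63e-06, and 1.42, adjusted p = 2.82e-05), and *Plau* in *Ocn*-/- forebrain (1.99, adjusted p = 0.0193). *Spp1* was thus called in opposite directions in the 2 organs. Its forebrain calls held whichever library was left out, whereas those of *Spp1* and *Cd44* in testes were lost without 1 or both of the WT testes in turn, and that of *Plau* without WT 2, WT 3, *Ocn*-/- 2 or *Ocn*-/- 3.

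Other gene groups moved with the WT libraries in testes. Summed neutrophil genes were at 78.1 to 86.4 CPM in WT and 13.8 to 45.7 CPM in mutant testes, with 6 of 8 tested, 3 called lower in *Ocn*+/- and 4 in *Ocn*-/- mice (0 and 2 without WT 1), beside 4.36% and 3.09% of all genes. None of them was at 0 in all testes. Summed endothelial markers were at 600 to 607 CPM in WT and 360 to 458 CPM in mutant testes. Leydig cell markers were at 1691 to 1772 and 714 to 1249 CPM. Summed erythroid markers were at 2600 to 6865 CPM in WT, 865 to 3943 CPM in *Ocn*+/- and 1316 to 2517 CPM in *Ocn*-/- testes, so WT and *Ocn*+/- overlapped. Of 12 hypoxia genes, 8 were called lower in each mutant genotype, beside the same shares of all genes (5 in *Ocn*+/- mice without WT 1 and 4 in *Ocn*-/- mice without WT 2). The part of these in the lower levels of *Fosl2* and *Junb* was not tested.

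In forebrain, summed hypoxia genes were at 1053 to 1242 CPM in WT and 814 to 889 CPM in mutant mice, and summed forebrain markers at 1631 to 2121 and 1238 to 1617 CPM. Summed olfactory bulb markers were at 98.5 to 117 CPM in WT, 176 to 220 CPM in *Ocn*+/- and 82.9 to 159 CPM in *Ocn*-/- forebrain, with no gene called. Summed erythroid markers were at 523 to 723 CPM in WT, 357 to 408 CPM in *Ocn*+/- and 487 to 599 CPM in *Ocn*-/- forebrain, with 3 and 1 of 6 tested called lower, beside 2.68% and 3.05% of all genes. Summed choroid plexus markers were at 576 to 739 CPM in WT, 575 to 862 CPM in *Ocn*+/- and 322 to 534 CPM in *Ocn*-/- forebrain, with no gene called. Neutrophil genes summed to at most 3.69 CPM in any forebrain, with *Elane* at 0 in all. Of 10 heat shock genes none was called in forebrain, with extremes of -0.67 for *Hspa1b* (adjusted p = 0.399) and 0.21 for *Hspa8* (adjusted p = 0.0964) in *Ocn*+/- mice and -1.43 for *Hspb1* (adjusted p = 0.0583) and 0.16 for *Hspa8* (adjusted p = 0.201) in *Ocn*-/- mice. In testes 3 of the 10 were called lower in *Ocn*+/- and 2 in *Ocn*-/- mice, beside 4.36% and 3.09% of all genes. Without *Ocn*+/- 3 it was 1 in each, beside 1.79% and 2.56%, and without WT 1 none. *Hspa1b* was lower in both genotypes (-0.80, adjusted p = 0.0198, and -0.86, adjusted p = 0.0166), *Hsp90aa1* (-0.47, adjusted p = 0.0311) and *Hspd1* (-0.38, adjusted p = 0.0484) in *Ocn*+/- mice and *Hspa1a* (-0.73, adjusted p = 0.0359) in *Ocn*-/- mice. The part of these groups in the lower level of *Jun* was not tested.

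The genes whose log2 CPM most resembled the mean of the 10 genes were sought in each organ among genes averaging 5 CPM or more. In testes, over 8 libraries, they were *Uqcrfs1*, *Rpl6*, *Ubb*, *Gde1* and *Loxl3*, with Pearson's r of 0.974 to 0.956. In forebrain, over 9 libraries, they were *1500015A07Rik*, *Casp6*, *Slc30a9*, *Efemp2* and *Zfp653*, with r of 0.950 to 0.908. These are the highest of 12490 and 11913 genes ranked, the libraries fall into WT, mutant and *Ocn*+/- 3, and no gene was among the first 5 in both organs.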

How the data were processed

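RNA was sequenced by the authors from 17 libraries, 8 of testes and 9 of forebrain. A figure legend of the study counts fewer WT forebrains than the labels list, and whether WT 3 is the library left out there is not given in the sources used here. Poly-A RNA was prepared with the NEBNext Ultra RNA kit (strand is not stated in the sources used here), and reads were trimmed with Trim Galore 0.6.6, aligned to GRCm39 with STAR 2.7.8a and counted with RSEM 1.3.3 (versions from the submitters' processing notes). The authors deposited RSEM's expected counts of 55359 genes, not normalized. RSEM divides reads that match several genes, so values need not be whole.

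Expected counts were rounded. Each organ was fitted with its 3 genotypes in edgeR 4.0.16 (R 4.3.3, limma 3.58.1), with TMM normalization, filterByExpr, robust quasi-likelihood tests, no covariates and two-sided p. A joint fit tested the difference between organs. Log2 CPM used a prior count of 2. Names, positions and sequences came from GENCODE and GRCm39, which found 54749 identifiers. The p-values measure the spread between pups of a group, whose litters are not given.

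Alternatives were other scalings, DESeq2 1.42.0, other filters, the compared genotypes alone, a replicate block and each library left out. The fits were tested on simulated data. All 10 genes are named, of other lists at most 6 called genes per comparison or the extremes, and 5 genes of like pattern per organ. A called gene of these lists is not reported here. The 10 genes and the lists were chosen with earlier results of these data known.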

Additional observations from a re-analysis of the deposited data

Results flagged for a closer look

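For 2 of the 10 genes the change of mutant mice against WT differed between organs by the test of the difference itself. For *Fosl2* the change in forebrain exceeded that in testes by 1.52 on the log2 scale, with -0.046 in forebrain and -1.56 in testes. For *Junb* the difference was 1.84, with -0.069 in forebrain and -1.91 in testes. Leaving out *Ocn*+/- 3 of both organs gave 1.52 ± 0.17 for *Fosl2* (adjusted p = 3.09e-05) and 1.69 ± 0.42 for *Junb* (adjusted p = 0.0412). Without forebrain WT 3 the difference of *Junb* was 1.67 ± 0.44 and missed the threshold (adjusted p = 0.0538). Without testes WT 2, which leaves a single WT testis, it was 1.47. Of all 17800 genes in the joint fit, 2.96% were called. Each group held at most 3 libraries, and no separate test for an outlying library was run. *Ocn*+/- 3 is described by its values and by fits without it.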

How the results depend on the processing

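Of the calls among the 10 genes, those of *Fosl2* in testes, of *Junb* in *Ocn*-/- testes and of *Fosl2* for the difference between organs kept direction and threshold under every alternative run. With a library left out, the 10 genes gave 1 to 5 calls in *Ocn*+/- and 2 to 5 in *Ocn*-/- testes, 1 to 4 and 1 to 5 in forebrain and 1 to 2 for the difference between organs. The high counts came without *Ocn*+/- 3. *Fos* in *Ocn*+/- mice then ranged from -2.25 to 1.06 in testes and -1.41 to 0.77 in forebrain, and *Fosb* from -3.18 to 2.21 and -2.42 to 1.31. A fit of the compared genotypes alone, which leaves out *Ocn*+/- mice, called 7 of the 10 genes in *Ocn*-/- testes (905 of 15959 genes in all) and 5 of 9 tested in forebrain (751 of 15590). In forebrain a second gene, *Jund*, was called in *Ocn*-/- mice with DESeq2, no filter on low counts or at least 10 counts in every library (2 genes each) and in *Ocn*+/- mice with no filter (2 genes). Without forebrain WT 3 and *Ocn*+/- 3, chosen after seeing the data, 2 and 3 genes were called, with *Fosb* at -2.39 in *Ocn*+/- mice. Of 1185 values of single genes, 69 changed sign without being called in either fit; the cause was not tested.

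Over all genes, a left-out library gave 118 to 2019 and 85 to 1559 calls in *Ocn*+/- and *Ocn*-/- testes, 183 to 830 and 189 to 919 in forebrain, 0 to 47 and 1 to 2 between the mutant genotypes, and 93 to 1070 for the difference between organs. The low values came without a WT library (testes WT 2 and WT 1, 118 and 131 in *Ocn*+/- and 85 and 231 in *Ocn*-/- mice; forebrain WT 3, 183 and 189), and 1 WT testis is then assumed to vary like the other groups. With no filter 2149, 1763 and 252 were called in testes (*Ocn*+/-, *Ocn*-/- and between them), 1265, 1502 and 34 in forebrain and 1023 for the difference. DESeq2 called 70 and 5 between the mutant genotypes of testes and forebrain, where edgeR called 0 and 1 with 1881 and 515 at an unadjusted p under 0.05, and 1019 for the difference. At least 10 counts gave 3 and 0 between the mutant genotypes, and the compared genotypes alone 2084 in *Ocn*+/- testes and 0 between the mutant forebrains. Library size alone gave 369 in *Ocn*+/- forebrain and 2 between the mutant forebrains. It raised the share of higher calls from 47.2% to 68.1% and 45.1% to 65.2% in testes and from 31.0% to 47.7% and 37.2% to 64.5% in forebrain, and moved the median of all genes to between 0.072 and 0.11. Without forebrain WT 3 and *Ocn*+/- 3, 95 and 150 were called.

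Replicate numbers did not pair the samples, with correlations of same-numbered libraries between -0.094 and 0.15 within an organ. Between organs all 8 pairs of the same genotype and number were positive, from 0.0082 to 0.14, not all over 0.1, and no block across organs was fitted. With a replicate block 2 of the 10 genes were called in each forebrain comparison with WT, *Jun* and *Jund*, and 1 gene of all between the mutant testes. The block changed no other call of the 10 genes. Expected counts went down to 1 for *Atf3* and 10 for *Egr2* in forebrain and to 15 for *Egr3* in testes.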
